A study of Mus musculus with 6 samples.

Results

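Passage 24 of the 661W line was compared with passages 26 and 27 of the same line. Passage 24 supplied 2 of the 6 RNA libraries of the study, 1 from serum-starved and 1 from serum-fed cells. Passages 26 and 27 supplied the other 4, again 1 starved and 1 fed library at each passage. 661W is a mouse line used as a model of cone photoreceptors; it grew out of a tumor in the eye of an animal carrying the SV40 T antigen. The labels give no transgene or other agent beyond serum for any of the 6 cultures. They grew for 48 h in high-glucose DMEM with 10% fetal calf serum (FCS), and the medium was then changed to DMEM without FCS (starved) or to fresh DMEM with 10% FCS (fed) for 72 h. Each passage was an independent experiment, so the 2 libraries of a passage share their source, and the passage number cannot be told apart from the experiment in which it was grown.

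Immortal cell lines are not static. A culture is a population of dividing cells, and during serial splitting its composition, its chromosomes and its chromatin marks can shift, so that RNA levels drift between passages. T antigen of SV40 binds and inactivates the p53 and retinoblastoma proteins, which is how it keeps cells cycling. A difference between passages in bulk RNA can come from more cells of a type or from more RNA per cell, and these cannot be told apart here.

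The libraries held 71970076 to 87178722 counts in 38776 genes, and a count of 0 allowed up to 0.0344 to 0.0417 counts per 1000000 (CPM) by counting error alone. Levels are given below as CPM of each library's total, in the order serum starved, then serum fed. Mitochondrially encoded genes took 1.49 and 1.55% of the counts at passage 24, 2.03 and 2.04% at passage 26 and 1.59 and 1.63% at passage 27. On the first principal component (57.8% of the variance of log CPM) the passage 24 libraries scored -37.4 and -85.4, those of passage 26 scored 58.5 and -28.1, and those of passage 27 scored 65.8 and 26.5. On this component the fed library of passage 26 lay nearest to passage 24, but the fed library scored below the starved one at every passage. On the second component (20.2% of the variance) the fed library of passage 26 scored -23.9, against 25.1 and 11.8 at passage 24.

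In edgeR's quasi-likelihood test with the growth condition in the model, 1326 of 16168 genes differed between passage 24 and passages 26 and 27 at a Benjamini-Hochberg adjusted p under 0.05, a background of 8.20%. Of these, 709 were higher at passage 24 (4.39% of the genes tested) and 617 were lower (3.82%). With each library scaled to its total in place of TMM normalization, which moved the median of all genes by -0.09 on the log2 scale, 518 genes were higher and 860 lower, so the share higher was 37.6% in place of 53.5%. The genes called higher had a median log2 fold change (passage 24 over passages 26 and 27) of 1.08 and those called lower of -1.24, against -0.01 over all genes tested. A more than 2-fold difference was fitted for 389 of the higher and 386 of the lower genes. The passage 24 libraries lay apart from all others for 644 of the genes called higher and 530 of those called lower. Separation is therefore usual among called genes. Over all genes tested 14.9% had both passage 24 libraries above all others and 22.4% had both below.

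These calls rest on few libraries. No gene was called at an adjusted p under 0.01 (smallest adjusted p 0.0210, edgeR; 5352 genes had an unadjusted p under 0.05, and DESeq2 called 1970 at an adjusted p under 0.01). Leaving out the fed or the starved library of passage 24 left 0 genes at an adjusted p under 0.05 in edgeR, with 3376 and 2536 genes at an unadjusted p under 0.05. Without the starved library of passage 26 the count was 132, without the starved library of passage 27 it was 35, and without the fed library of passage 26 it was 3595. With the passage as a random block in limma-voom, since the libraries of a passage share their source, 630 genes were called, and 309 with the counts of each passage summed. The plot of calls by setting shows these counts side by side. Over 3 passages an exact permutation test cannot go below p = 0.333, and the adjusted p-values measure the spread between libraries, not between independently passaged lines.

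**Figure D1:**
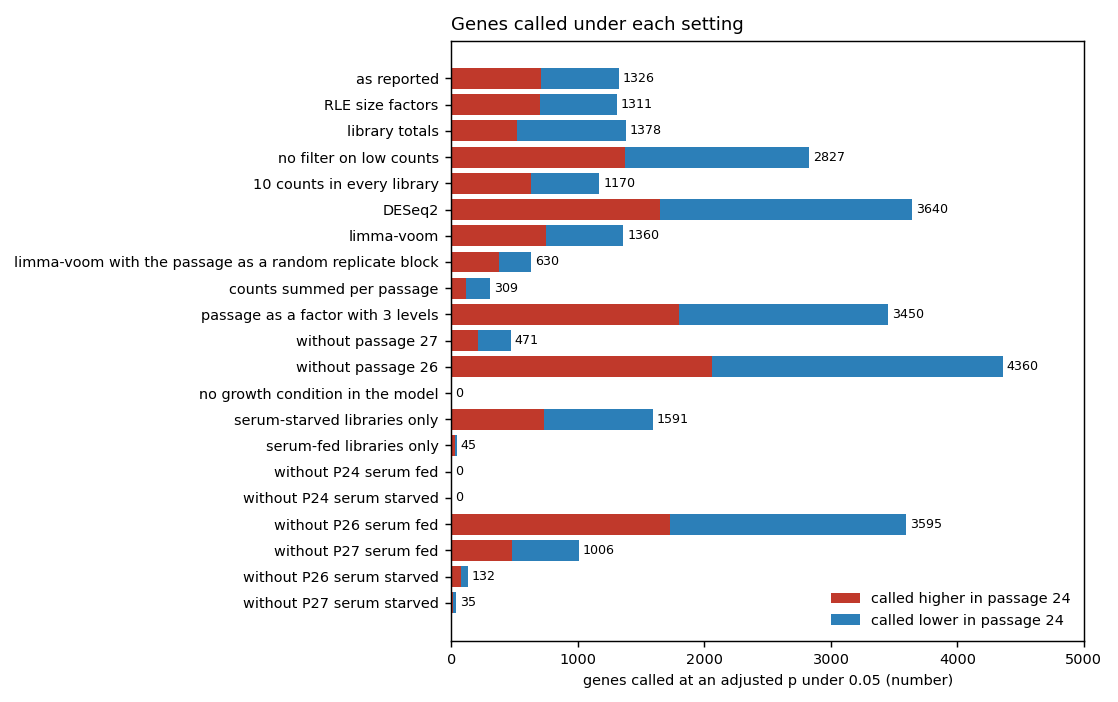
Genes called at an adjusted p under 0.05 in the comparison of passage 24 with passages 26 and 27 under each setting, with bars split into genes higher (red) and lower (blue) at passage 24. The count was 1326 as reported, 4360 without passage 26 and 471 without passage 27, and 0 without either library of passage 24.

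More genes differed between passages 24 and 27 than between passages 24 and 26. In a fit with the 3 passages as separate levels, 699 genes differed between passages 24 and 26 (314 higher and 385 lower at passage 24) and 3837 between passages 24 and 27 (1885 higher and 1952 lower), while 2 genes were called between passages 27 and 26 (2108 before adjustment at 0.05). The 3 contrasts share their libraries. Among the 709 genes called higher at passage 24, 570 had the larger difference against passage 27, and so did 449 of the 617 called lower. A test of whether the passage 24 difference itself differed between starved and fed cells called 0 of 16851 genes in edgeR (612 before adjustment at 0.05), and DESeq2 called 44. Genes called higher at passage 24 had a median log2 ratio of starved to fed cells of -0.35, and those called lower had 0.44, against -0.01 over all genes; this ratio was computed from the same 6 libraries.

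Genes of a secreted signal, a transporter and a glycosyltransferase were among the largest increases at passage 24. The largest changes were ranked only among called genes whose passage 24 libraries lay apart from all others. Wnt7a, which encodes a secreted Wnt ligand, had 23.5 and 83.8 CPM at passage 24, against 2.89 and 8.93 CPM at passage 26 and 0.436 and 0.576 CPM at passage 27 (log2 fold change 4.07 ± 0.94 SE, adjusted p = 0.0458). Slco4a1, an organic anion transporter, had 11.9 and 31.7 CPM at passage 24, against 2.22 and 2.57 CPM at passage 26 and 0.470 and 0.668 CPM at passage 27 (3.84 ± 0.68, adjusted p = 0.0319). For both genes the passage 26 libraries lay above those of passage 27.

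Nppb, the gene of the natriuretic peptide BNP, had 3.57 and 11.2 CPM at passage 24, against 0.0390 and 0.898 CPM at passage 26 and 0.0115 and 0.0786 CPM at passage 27 (5.59 ± 0.89, adjusted p = 0.0278). Lce1g, a late cornified envelope gene of the epidermis, had 4.36 and 44.3 CPM at passage 24, against at most 1.07 CPM in the other 4 libraries (6.6 ± 1.06, adjusted p = 0.0284). Galnt18, which adds the first sugar of mucin-type chains, had 6.68 and 13.2 CPM at passage 24, against 0.884 and 1.07 CPM at passage 26 and 0.837 and 0.537 CPM at passage 27 (3.61 ± 0.37, adjusted p = 0.0217). Nppb and Lce1g were higher in fed than in starved cells at passage 24, while the other 4 libraries of Galnt18 lay close together. Both passage 27 libraries of Lce1g, and the starved libraries of passages 26 and 27 for Nppb, lay at or under the level that a count of 0 allows. The size of these folds is therefore uncertain, and for Lce1g it was 5.61 against passage 26 and 11.6 against passage 27.

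Other genes among the 15 largest increases included Vwf, the blood clotting protein of endothelium (3.09 ± 0.59), Siglecg, a sialic acid-binding receptor of B cells (3.21 ± 0.66), Robo3, an axon guidance receptor (3.28 ± 0.71), and Atp13a4, a transport ATPase (4.63 ± 0.86). The rule for these 15 required both passage 24 libraries to lie above all 4 others. Prl2c3, a proliferin gene of the prolactin family, had 0.411 and 8.25 CPM at passage 24 and at most 0.161 CPM elsewhere. Proliferin genes are near-identical copies, so the share of reads that belongs to Prl2c3 is uncertain.

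The largest decreases included a neuronal membrane protein and several secreted proteins. Lrrn1, a leucine-rich neuronal membrane protein, had 3.98 and 1.15 CPM at passage 24, against 81.1 and 16.6 CPM at passage 26 and 51.6 and 31.6 CPM at passage 27 (log2 fold change -4.12 ± 0.37, adjusted p = 0.0210). Fibin, a secreted protein, had 2.71 and 0.445 CPM at passage 24, against 30.4 and 7.33 CPM at passage 26 and 30.5 and 11.3 CPM at passage 27 (-3.78 ± 0.33, adjusted p = 0.0210). Adamts16, a secreted metalloprotease, had 4.78 and 0.167 CPM at passage 24, against 65.2 and 6.30 CPM at passage 26 and 97.6 and 28.9 CPM at passage 27 (-4.81 ± 0.86, adjusted p = 0.0322). In all 3 genes the starved library was the higher of its passage. Both passage 24 libraries lay below every other library, which the choice of these genes required.

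Slc40a1, which encodes the iron exporter ferroportin, had 6.81 and 1.22 CPM at passage 24, against 46.7 and 7.64 CPM at passage 26 and 57.8 and 52.7 CPM at passage 27 (-3.57 ± 0.84, adjusted p = 0.0472). Col8a2, a collagen of the corneal basement membrane, fell by 4.04 ± 0.75 on the log2 scale, and Fgf21, a metabolic hormone of the FGF family, fell by 4.29 ± 0.60. The gap junction gene Gja5 fell by 4.27 ± 0.67. For Fgf21 and Gja5 the fed library of passage 24 (0.0417 CPM each) lay at the level that a count of 0 allows. The size of these folds is therefore uncertain. The plot of genes with large differences shows 5 genes of each direction by library.

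**Figure D2:**
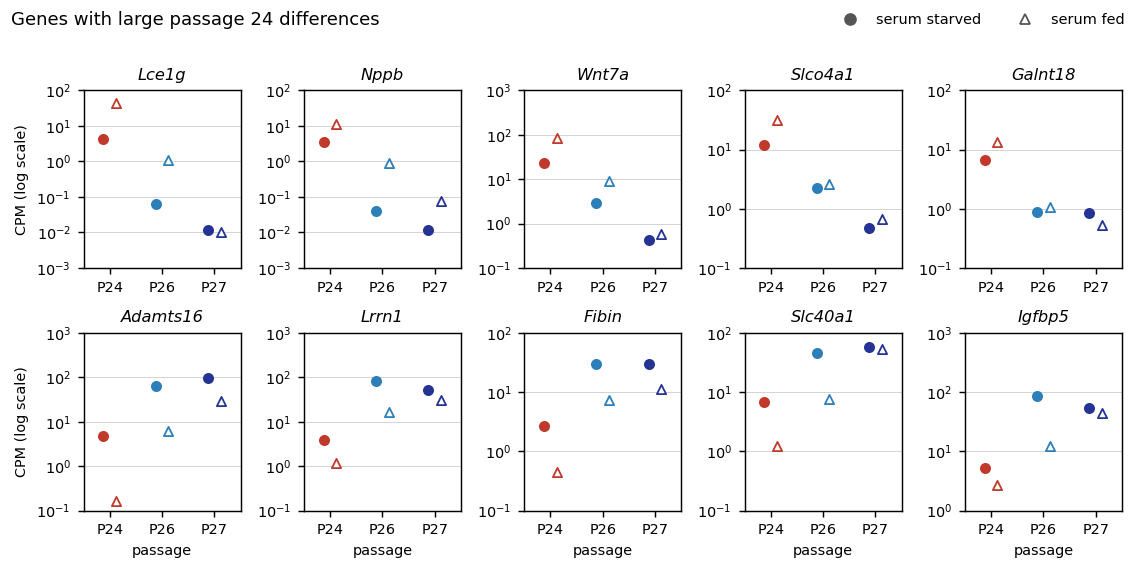
CPM (log scale) of 5 genes higher (upper row) and 5 lower (lower row) at passage 24, by passage, with serum-starved (filled circles) and serum-fed (open triangles) libraries; the fed library of passage 27 has no count of Lce1g and is drawn at 0.01 CPM. In each panel the passage 24 points lie beyond all 4 others, which the choice of these genes required. An example is Wnt7a, with 23.5 and 83.8 CPM at passage 24 against at most 8.93 CPM elsewhere.

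Several skeletal muscle genes were lower at passage 24. Myogenic factors such as Myog are DNA-binding proteins that switch on the sarcomere, the actin and myosin array of striated muscle, and serum withdrawal is the classical trigger of this switch in myoblast lines. Of 18 tested members of the sarcomere list 8 were called lower and 0 higher, and the median log2 fold change was -2.63, against -0.01 over all genes; both passage 24 libraries lay below all 4 others for 10 of the 18, where 22.4% of all genes did so.

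Myog, the myogenin gene, had 8.08 and 2.36 CPM at passage 24, against 148 and 31.5 CPM at passage 26 and 53.3 and 10.7 CPM at passage 27 (-3.32 ± 0.61, adjusted p = 0.0330). The embryonic myosin heavy chain gene Myh3 had 11.8 and 1.85 CPM at passage 24, against 219.6 and 30.04 CPM at passage 26 and 79.2 and 11.7 CPM at passage 27 (-3.50 ± 0.57, adjusted p = 0.0286). Chrng, the fetal subunit of the muscle acetylcholine receptor, had 1.22 and 0.236 CPM at passage 24, against 21.6 and 4.04 CPM at passage 26 and 9.16 and 2.06 CPM at passage 27 (-3.58 ± 0.52, adjusted p = 0.0241). Passage 26 had the highest level of all 3 genes in both growth conditions. For Myh3 the starved library of passage 24 (11.8 CPM) and the fed library of passage 27 (11.7 CPM) overlapped.

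The troponin I gene of slow muscle, Tnni1, fell by 3.24 ± 0.56 on the log2 scale, that of fast muscle, Tnni2, by 2.64 ± 0.49, and skeletal alpha-actin, Acta1, fell by 2.62 ± 0.55. Trdn, the triadin of the calcium release complex, fell by 4.65 ± 0.52, and Atp2a1, the calcium pump of fast muscle, fell by 3.14 ± 0.45. Among 8 tested myogenic factors and fusion genes only Myog was called lower. Pax3, a factor of muscle progenitors and neural crest, was called higher, with 11.9 and 13.3 CPM at passage 24, against 5.30 and 6.52 CPM at passage 26 and 8.10 and 5.29 CPM at passage 27 (1.09 ± 0.25, adjusted p = 0.0440). Myod1, another myogenic factor, chosen after its values were seen, had 8.68 and 38.9 CPM at passage 24, against 58.7 and 32.2 CPM at passage 26 and 27.98 and 24.6 CPM at passage 27, and did not pass the test (-0.61 ± 0.64, adjusted p = 0.537). Its starved library was the lowest of the 6 and its fed library the second highest.

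Several smooth muscle and cytoskeletal genes went the other way. Serum response factor (SRF) binds a DNA motif named the CArG box and drives actin and actin-binding genes when monomeric actin is used up, and the coactivator YAP acts in parallel on genes such as Ctgf and Cyr61. Of 14 tested smooth muscle contractile genes 7 were called higher and 1 lower (median 0.84), and of 15 tested SRF and YAP targets 7 were called higher and 0 lower (median 0.79). Both passage 24 libraries lay above all others for 9 and 10 of these genes, where 14.9% of all genes did so.

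Myl9, the regulatory light chain of smooth muscle myosin, had 165 and 158 CPM at passage 24, against 70.4 and 77.4 CPM at passage 26 and 74.8 and 51.98 CPM at passage 27 (1.32 ± 0.17, adjusted p = 0.0232). Srf itself had 86.3 and 114 CPM at passage 24, against 56.5 and 68.2 CPM at passage 26 and 59.01 and 57.8 CPM at passage 27 (0.81 ± 0.14, adjusted p = 0.0303). Ctgf had 348 and 749 CPM at passage 24, against 96.9 and 209 CPM at passage 26 and 94.6 and 74.7 CPM at passage 27 (2.23 ± 0.36, adjusted p = 0.0280). The groups did not overlap in any of these genes, and the fed library of passage 26 was the highest of the other 4 for each.

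Cnn2, a calponin, rose by 0.96 ± 0.15 on the log2 scale, Actg1, cytoplasmic gamma-actin, by 0.79 ± 0.14, Tgfb1i1, an SRF-linked focal adhesion protein, by 1.13 ± 0.18, and Lmod1, leiomodin 1, by 2.49 ± 0.40. Beta-actin (Actb), among the 5 genes with the most counts, rose by 0.85 ± 0.20. Acta2 and Tagln, chosen after their values were seen, are the usual marker genes of smooth muscle and myofibroblasts. Acta2 had 1805 and 2106 CPM at passage 24, against 872 and 1012 CPM at passage 26 and 531 and 393 CPM at passage 27 (1.56 ± 0.37, adjusted p = 0.0470). Tagln had 1349 and 1163 CPM at passage 24, against 433 and 608 CPM at passage 26 and 237 and 289.9 CPM at passage 27 (1.79 ± 0.35, adjusted p = 0.0353). Mylk, the kinase of that light chain, was the only smooth muscle list member called lower, with 9.26 and 7.45 CPM at passage 24, against 119 and 28.1 CPM at passage 26 and 70.7 and 52.3 CPM at passage 27 (-2.78 ± 0.39, adjusted p = 0.0240). Of the members not called, Des (-1.96 ± 0.48, adjusted p = 0.0503, edgeR), Myh11 (-0.47 ± 0.32) and Synpo2 (-0.40 ± 0.34) had negative fold changes. Smtn (0.72 ± 0.19), Tpm1 (0.64 ± 0.23) and Tpm2 (0.51 ± 0.22) had positive ones.

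**Figure D3:**
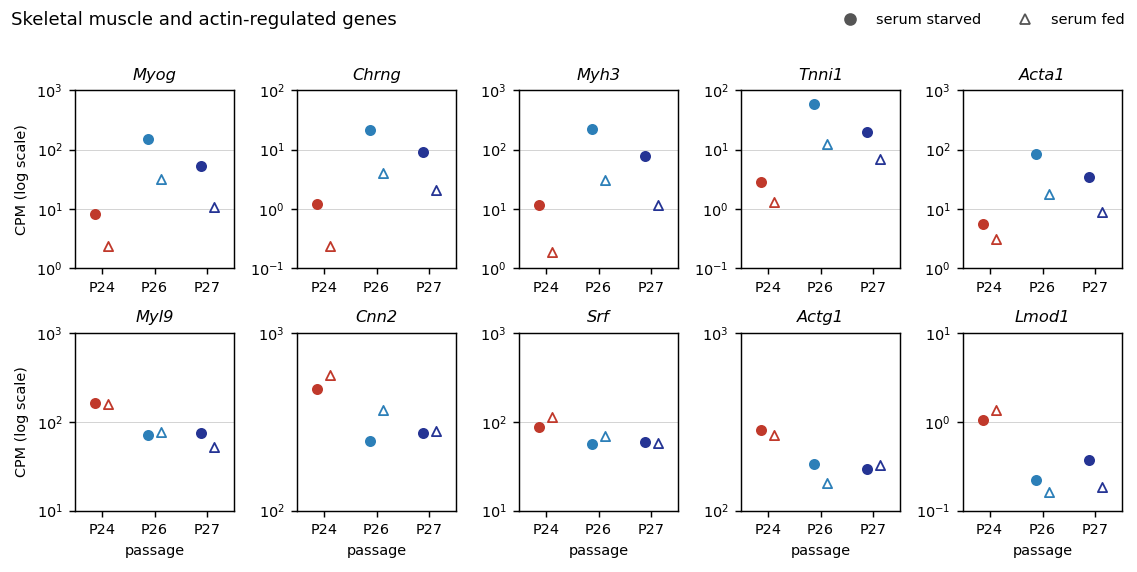
CPM (log scale) of skeletal muscle genes (upper row) and of SRF-linked actin and smooth muscle genes (lower row) by passage, with serum-starved (filled circles) and serum-fed (open triangles) libraries. Both passage 24 libraries lie below the others in the upper row, apart from Myh3, and above them in the lower row, as in 8.08 and 2.36 CPM of Myog and 164.6 and 157.9 CPM of Myl9.

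RefSeq promoters (GRCm38.p6, 250 bases before to 50 after the start) were read for these gene groups because their members moved together. Of the 14 members of the smooth muscle, SRF and YAP lists that were called higher, 8 had a promoter in the table and 4 of those held a CArG box on either strand, a motif found in 1.63% of all 32851 promoters, in 2.59% of those of genes called higher and in 1.38% of those of genes called lower at passage 24. The lists include SRF targets by their making, so their share is not independent of the motif. The promoters of Cnn2 (chr10:79988350-79988649, plus strand), Myl9 (chr2:156775214-156775513, plus strand), Actg1 (chr11:120348446-120348745, minus strand) and Srf (chr17:46556113-46556412, minus strand) are shown with the CArG boxes in capitals:
Cnn2: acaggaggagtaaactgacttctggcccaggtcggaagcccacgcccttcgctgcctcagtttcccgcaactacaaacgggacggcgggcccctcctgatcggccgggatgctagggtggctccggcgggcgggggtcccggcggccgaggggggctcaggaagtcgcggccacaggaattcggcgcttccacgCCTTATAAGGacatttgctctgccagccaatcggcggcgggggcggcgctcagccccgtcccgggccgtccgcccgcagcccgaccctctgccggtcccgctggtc
Myl9: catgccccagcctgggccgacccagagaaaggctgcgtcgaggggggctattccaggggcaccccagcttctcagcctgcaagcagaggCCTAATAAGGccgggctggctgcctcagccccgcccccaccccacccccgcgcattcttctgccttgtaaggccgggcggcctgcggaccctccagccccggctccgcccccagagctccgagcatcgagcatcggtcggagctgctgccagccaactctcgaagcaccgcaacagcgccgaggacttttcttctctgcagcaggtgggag
Actg1: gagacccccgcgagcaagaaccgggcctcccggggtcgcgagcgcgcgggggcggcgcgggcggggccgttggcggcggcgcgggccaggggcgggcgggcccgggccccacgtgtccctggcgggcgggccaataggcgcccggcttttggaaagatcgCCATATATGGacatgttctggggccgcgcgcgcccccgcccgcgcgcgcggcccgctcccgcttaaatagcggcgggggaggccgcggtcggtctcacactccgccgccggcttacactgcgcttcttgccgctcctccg
Srf: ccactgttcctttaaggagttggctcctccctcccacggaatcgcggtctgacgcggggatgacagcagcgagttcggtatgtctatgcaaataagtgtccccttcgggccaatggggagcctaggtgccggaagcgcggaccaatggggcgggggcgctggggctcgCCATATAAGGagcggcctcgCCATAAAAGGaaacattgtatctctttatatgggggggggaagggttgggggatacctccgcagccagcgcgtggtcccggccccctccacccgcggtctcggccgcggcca
Of the 9 sarcomere and myogenic members called lower, 8 had a promoter and 3 of those held the E-box CAGCTG, a motif that myogenic factors bind and that reads the same on both strands. This motif was in 16.3% of all promoters, in 17.5% of those of genes called higher and in 18.2% of those of genes called lower at passage 24. The promoters of Chrng, on neither list but among the largest decreases, (chr1:87205561-87205860, plus strand) and Tnni1 (chr1:135799171-135799470, plus strand, the first of 2 listed) are shown with CAGCTG in capitals:
Chrng: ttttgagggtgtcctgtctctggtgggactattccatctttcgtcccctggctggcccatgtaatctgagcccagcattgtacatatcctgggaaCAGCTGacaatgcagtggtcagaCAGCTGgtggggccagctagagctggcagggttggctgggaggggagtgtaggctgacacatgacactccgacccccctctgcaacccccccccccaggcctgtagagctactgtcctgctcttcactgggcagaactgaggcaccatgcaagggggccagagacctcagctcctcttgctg
Tnni1: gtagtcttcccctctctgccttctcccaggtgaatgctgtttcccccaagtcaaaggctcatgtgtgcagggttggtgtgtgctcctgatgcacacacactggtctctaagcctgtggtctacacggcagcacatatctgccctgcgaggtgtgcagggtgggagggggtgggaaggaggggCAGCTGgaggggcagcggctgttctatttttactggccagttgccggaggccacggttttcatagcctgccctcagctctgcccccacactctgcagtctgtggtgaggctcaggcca
The Srf promoter held 2 CArG boxes and the Chrng promoter held 2 of the E-boxes. A match is a run of letters and no measurement of binding.

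Several genes of growth factor signalling were higher at passage 24. The ERK kinase cascade induces immediate early genes within minutes of growth factor stimulation, together with phosphatases that shut it off. Of 25 tested immediate early and ERK feedback genes 6 were called higher and 0 lower (median 0.23). Dusp5, a phosphatase of nuclear ERK, had 39.9 and 142 CPM at passage 24, against 6.63 and 52.9 CPM at passage 26 and 6.94 and 28.4 CPM at passage 27 (2.28 ± 0.27, adjusted p = 0.0217). Ier3, a survival gene of the early response, had 102 and 117 CPM at passage 24, against 31.2 and 46.05 CPM at passage 26 and 19.7 and 27.99 CPM at passage 27 (1.93 ± 0.25, adjusted p = 0.0232). Dusp4, another ERK phosphatase, rose by 1.74 ± 0.25 and Phlda1 by 1.87 ± 0.29. Dusp5 overlapped, since the fed library of passage 26 lay above the starved library of passage 24, whereas Ier3 did not.

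Of 25 tested ligand genes of the FGF, PDGF, VEGF, EGF and neurotrophin families 7 were called higher and 2 lower (median 0.40). Bdnf, a neurotrophin that supports retinal ganglion cells, had 53.8 and 68.3 CPM at passage 24, against 31.2 and 35.1 CPM at passage 26 and 34.6 and 28.2 CPM at passage 27 (1.00 ± 0.16, adjusted p = 0.0286). Ereg, a ligand of the EGF receptor, rose by 2.18 ± 0.36. Among 21 tested receptor tyrosine kinases 3 were called higher and 1 lower. Kdr, the main VEGF receptor, had 12.4 and 24.8 CPM at passage 24, against 2.25 and 6.74 CPM at passage 26 and 1.66 and 2.25 CPM at passage 27 (2.65 ± 0.40, adjusted p = 0.0253). Erbb3, a neuregulin receptor, fell by 1.83 ± 0.36.

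Wnt ligands bind Frizzled receptors and stabilise beta-catenin, which acts with Lef1 and its relatives on DNA. Of 25 tested Wnt pathway genes 7 were called higher and 1 lower, with a median of 0.03, which is smaller than the shift of -0.09 between scalings. Wnt4 had 10.1 and 10.9 CPM at passage 24, against 2.79 and 2.63 CPM at passage 26 and 3.65 and 1.01 CPM at passage 27 (2.22 ± 0.41, adjusted p = 0.0330). Rspo3, an R-spondin that amplifies Wnt signals, rose by 2.10 ± 0.39 and Wnt2 by 2.55 ± 0.46. The call in the other direction was Lef1 itself, with 0.540 and 0.611 CPM at passage 24, against 2.57 and 1.46 CPM at passage 26 and 2.28 and 2.34 CPM at passage 27 (-1.80 ± 0.36, adjusted p = 0.0367). In the BMP and TGF-beta list 1 of 28 tested genes was called higher and 3 lower, with a median of 0.50 in the direction opposite to most of the calls. Tgfb2, a ligand among the lower calls, fell by 0.84 ± 0.13. Notch3 fell by 2.4 ± 0.48, the single call among 16 Notch pathway genes (6.2%, under the 8.20% of all genes). The Hedgehog co-receptors Gas1 and Cdon fell by 1.80 ± 0.35 and 1.60 ± 0.38, the only calls among 12 (16.7%).

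Some inflammatory and p53-linked genes were also higher at passage 24. Of 22 tested genes of the secretory and inflammatory list 7 were called higher and 0 lower (median 0.86). Icam1, a leukocyte adhesion receptor, had 5.36 and 5.52 CPM at passage 24, against 1.38 and 1.46 CPM at passage 26 and 1.95 and 1.13 CPM at passage 27 (1.98 ± 0.28, adjusted p = 0.0240). Ccl2, the main monocyte chemokine, had 34.6 and 35.5 CPM at passage 24, against 10.3 and 21.8 CPM at passage 26 and 13.7 and 12.4 CPM at passage 27 (1.38 ± 0.26, adjusted p = 0.0343). Ptgs1, a prostaglandin synthase, rose by 1.25 ± 0.19, and Il1rl1, the receptor of interleukin 33, rose by 1.51 ± 0.25. Icam1 and Ccl2 were nearly equal in starved and fed cells of passage 24, and no library of the other passages reached them.

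Of 19 tested p53 targets 4 were called higher and 0 lower (median 0.74). Cdkn1a, the cell cycle inhibitor p21, had 199.5 and 332 CPM at passage 24, against 77.1 and 165 CPM at passage 26 and 44.8 and 78.5 CPM at passage 27 (1.67 ± 0.32, adjusted p = 0.0340). Mdm2, the ligase that degrades p53, had 141 and 216 CPM at passage 24, against 61.7 and 115 CPM at passage 26 and 60.1 and 62.6 CPM at passage 27 (1.34 ± 0.22, adjusted p = 0.0297). The death genes Bax and Perp rose by 1.07 ± 0.24 and 0.97 ± 0.23. Among the 19 targets, 7 had both passage 24 libraries above all others, where 14.9% of all genes did so. The 4 called genes were among these 7.

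Of 22 tested mitotic genes 4 were called higher and 0 lower (median 0.11), and of 22 tested DNA replication and G1/S genes 0 were called in edgeR (4 before adjustment at 0.05, 2 by DESeq2). Ube2c, a ubiquitin enzyme of mitotic exit, had 133 and 150.2 CPM at passage 24, against 74.7 and 106 CPM at passage 26 and 89.5 and 106 CPM at passage 27 (0.69 ± 0.13, adjusted p = 0.0330). Cdc20, an activator of mitotic exit, Aurka, a spindle kinase, and Birc5, survivin, rose by 0.58 ± 0.12, 0.54 ± 0.12 and 0.54 ± 0.13. Hmga2, a chromatin protein of embryonic and tumour cells, had 153 and 496 CPM at passage 24, against 28.1 and 239 CPM at passage 26 and 16.8 and 64.9 CPM at passage 27 (2.35 ± 0.49, adjusted p = 0.0390), and its relative Hmga1 rose by 1.85 ± 0.28. These were the only calls among 8 tested oncofetal genes. Hmga2 was higher in fed cells at each passage, and its starved library of passage 24 lay below the fed library of passage 26.

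Metabolic and stress-defence genes were higher in part. Of 23 tested glycolysis and hypoxia genes 7 were called higher and 1 lower (median 0.42). Eno1, enolase, had 624 and 890.4 CPM at passage 24, against 281 and 527 CPM at passage 26 and 321 and 478 CPM at passage 27 (1.03 ± 0.14, adjusted p = 0.0233). Pkm, pyruvate kinase, rose by 0.83 ± 0.16, Gapdh by 0.74 ± 0.15 and Hk1, hexokinase 1, by 0.71 ± 0.12. Of 21 tested antioxidant genes, many of them targets of the factor NRF2, 6 were called higher and 0 lower (median 0.59). Gsta4, which detoxifies lipid peroxides, rose by 1.34 ± 0.21 and Sod2, the mitochondrial superoxide dismutase, by 0.86 ± 0.16.

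Ferritin stores iron and metallothioneins bind zinc and copper. The ferritin light chain gene Ftl1 had 1751 and 1601 CPM at passage 24, against 765 and 792 CPM at passage 26 and 714 and 657 CPM at passage 27 (1.28 ± 0.15, adjusted p = 0.0217). The heavy chain gene Fth1 rose by 0.75 ± 0.15, Mt2 by 1.66 ± 0.28 and Mt1 by 1.02 ± 0.20. With Slc40a1, the exporter above, they made up the 4 higher and 1 lower calls among 10 tested genes of metal binding and transport. The storage genes rose and the export gene fell in the same libraries.

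Of 28 tested cytosolic ribosomal protein genes 3 were called higher and 0 lower (10.7%, median 0.55). Of 22 tested nuclear genes of the respiratory chain 1 was called higher (4.5%, median 0.44). The share called over all genes was 8.20%. Rps2 rose by 1.05 ± 0.23, Rpl8 by 0.79 ± 0.17 and Rplp2 by 0.80 ± 0.17. Ribosomal protein genes have many processed copies in the genome, so their counts are uncertain. Short and GC-rich genes were higher at passage 24 as a class: the median log2 fold change ran 0.17, 0.14, -0.01, -0.09 and -0.21 from the shortest to the longest of 5 equal groups of genes, and -0.18, -0.07, 0.04, 0.09 and 0.08 from the lowest to the highest of 5 groups by GC content. Relative to genes of like length and GC content the ribosomal median was 0.33 and the respiratory median 0.27. The part of gene length and GC content in these lists was not tested further. In edgeR 0 of 21 tested cholesterol synthesis genes were called (6 before adjustment at 0.05, 0 by DESeq2), 0 of 22 of the unfolded protein response (6 and 5) and 0 of 28 interferon-stimulated genes (10 and 5).

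Some genes of fibrillar collagens and of the small proteoglycans that coat them were lower at passage 24, while the lists of matricellular proteins and of proteases and their inhibitors had calls in both directions. Of 13 tested fibrillar collagen genes 4 were called lower and 0 higher (median -1.44), and of 20 tested genes of small leucine-rich proteoglycans and elastic fibre 3 were called lower and 0 higher (median -1.15). Col1a2, the alpha 2 chain of collagen I, had 1714 and 685 CPM at passage 24, against 4737 and 1726 CPM at passage 26 and 5433 and 2281 CPM at passage 27 (-1.47 ± 0.20, adjusted p = 0.0232). Its partner chain Col1a1 went the other way and did not pass (0.97 ± 0.26, adjusted p = 0.0616, edgeR). Col1a1 had 64.4 and 31.2 CPM at passage 24, 32.3 and 12.95 CPM at passage 26 and 58.35 and 13.5 CPM at passage 27. Ogn, the proteoglycan osteoglycin, had 15.4 and 6.02 CPM at passage 24, against 73.4 and 25.9 CPM at passage 26 and 82.2 and 21.5 CPM at passage 27 (-2.07 ± 0.18, adjusted p = 0.0210). Starved cells had more Col1a2 and Ogn in every passage, and for Ogn the starved library of passage 24 stayed below the fed libraries of the other passages. For Col1a2 it had 1714 CPM against 1726 CPM in the fed library of passage 26, an order that the TMM factors (0.979 and 0.994) reverse.

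Col11a1 fell by 2.34 ± 0.30 and Col5a1 by 0.86 ± 0.17, and in these genes the starved library of passage 24 lay within the range of the fed libraries of passages 26 and 27 or above it. Cdh11, a cadherin of mesenchyme, had 169 and 77.7 CPM at passage 24, against 470.1 and 203 CPM at passage 26 and 579.8 and 337 CPM at passage 27 (-1.62 ± 0.23, adjusted p = 0.0240). It was 1 of 3 lower calls among 12 tested cadherin and junction genes. Integrin beta 8 (Itgb8) fell by 2.14 ± 0.28.

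In the other direction, Thbs1, the matricellular protein thrombospondin 1, had 291 and 527 CPM at passage 24, against 108 and 173 CPM at passage 26 and 79.3 and 108 CPM at passage 27 (1.86 ± 0.22, adjusted p = 0.0217). Serpine2, a serine protease inhibitor, rose by 2.66 ± 0.27 and Plaur, the urokinase receptor, by 1.92 ± 0.34. Of 14 tested matricellular genes 3 were called higher and 1 lower, and of 23 tested matrix proteases and inhibitors 4 were called higher and 2 lower. Postn, periostin, was the lower matricellular call (-1.28 ± 0.26).

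Some imprinted growth genes were lower at passage 24. Imprinted genes are read from 1 parental copy only, and H19 and Igf2 share a control region on mouse chromosome 7. Of 23 tested genes of the IGF axis and the imprinted growth network 8 were called lower and 0 higher (median -0.72). H19, a noncoding RNA, had 909 and 199 CPM at passage 24, against 5139 and 1066 CPM at passage 26 and 3625 and 1262 CPM at passage 27 (-2.32 ± 0.23, adjusted p = 0.0217). Peg3, a paternally expressed zinc finger gene, had 19.4 and 24.6 CPM at passage 24, against 114 and 73.4 CPM at passage 26 and 70.9 and 97.7 CPM at passage 27 (-1.93 ± 0.25, adjusted p = 0.0232). Igf2, chosen after its values were seen, had 53.6 and 21.2 CPM at passage 24, against 266 and 86.8 CPM at passage 26 and 105 and 64.04 CPM at passage 27 (-1.72 ± 0.37, adjusted p = 0.0399). None of the 3 genes overlapped between the groups, and H19 was high in starved cells at each passage. Over the list of 23, both passage 24 libraries lay below all others for 9 genes, where 22.4% of all genes did so.

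Igfbp2, a secreted IGF-binding protein, had 398 and 93.5 CPM at passage 24, against 1452 and 429 CPM at passage 26 and 1439 and 803 CPM at passage 27 (-2.18 ± 0.32, adjusted p = 0.0251), and Igfbp5 fell by 3.47 ± 0.57. Among 11 tested genes of DNA methylation and germline identity 3 were called lower and 0 higher (median -1.29). Tet3 and Tet2 oxidise methylcytosine and Dnmt3a writes it. Tet3 had 22.6 and 18.3 CPM at passage 24, against 71.6 and 35.7 CPM at passage 26 and 83.98 and 53.1 CPM at passage 27 (-1.43 ± 0.22, adjusted p = 0.0264). Tet2 fell by 1.29 ± 0.22 and Dnmt3a by 1.56 ± 0.31, so eraser and writer genes moved in the same direction.

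Of 21 tested Hox genes, the positional code of the body axis, 2 were called lower and 0 higher (9.5%, beside 8.20% of all genes). Hoxb9 had 7.23 and 4.83 CPM at passage 24, against 29.6 and 32.04 CPM at passage 26 and 32.3 and 53.4 CPM at passage 27 (-2.50 ± 0.33, adjusted p = 0.0232), and Hoxa3 fell by 2.34 ± 0.51. Of 17 tested circadian clock genes 3 were called lower, with Per2, a clock repressor, at 4.08 and 2.44 CPM at passage 24, against 12.2 and 6.99 CPM at passage 26 and 12.9 and 7.01 CPM at passage 27 (-1.48 ± 0.21, adjusted p = 0.0241). Among 18 tested retinoid and glucocorticoid response genes 3 were called higher and 0 lower, with a median of -0.22. Both passage 24 libraries lay above all others for 4 members and below them for 5, beside 14.9% and 22.4% of all genes. Aldh1a1, which makes retinoic acid, rose by 1.94 ± 0.28, Cyp26b1, which degrades it, by 2.69 ± 0.42 and Sgk1, a glucocorticoid-induced kinase, by 1.43 ± 0.17.

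The Y chromosome stood lowest when genes were grouped by chromosome. Median log2 fold changes of the autosomes lay between -0.147 (chromosome 16) and 0.094 (chromosome 17), that of the X chromosome was -0.232 and that of the 5 tested Y-linked genes was -1.025. Of 583 tested X-linked genes 6 were called higher and 49 lower, and of the 5 Y-linked genes 3 were called lower. The X-linked share called was 9.4%, near the 8.20% of all genes and under the 11.4% of chromosome 1. Only its direction was uneven, since over all genes 4.39% were called higher and 3.82% lower. Kdm5d, a histone demethylase, had 23.6 and 19.9 CPM at passage 24, against 50.04 and 40.8 CPM at passage 26 and 45.8 and 51.6 CPM at passage 27 (-1.02 ± 0.16, adjusted p = 0.0272). Uty, a relative of the X-linked demethylase Kdm6a, fell by 1.21 ± 0.23 and Ddx3y, an RNA helicase, by 1.06 ± 0.24. Kdm6a itself fell by 0.80 ± 0.17. Eif2s3y, a translation factor, had 48.6 and 54.7 CPM at passage 24, against 77.8 and 82.4 CPM at passage 26 and 73.1 and 59 CPM at passage 27, and did not pass the test (-0.41 ± 0.18, adjusted p = 0.151).

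**Figure D4:**
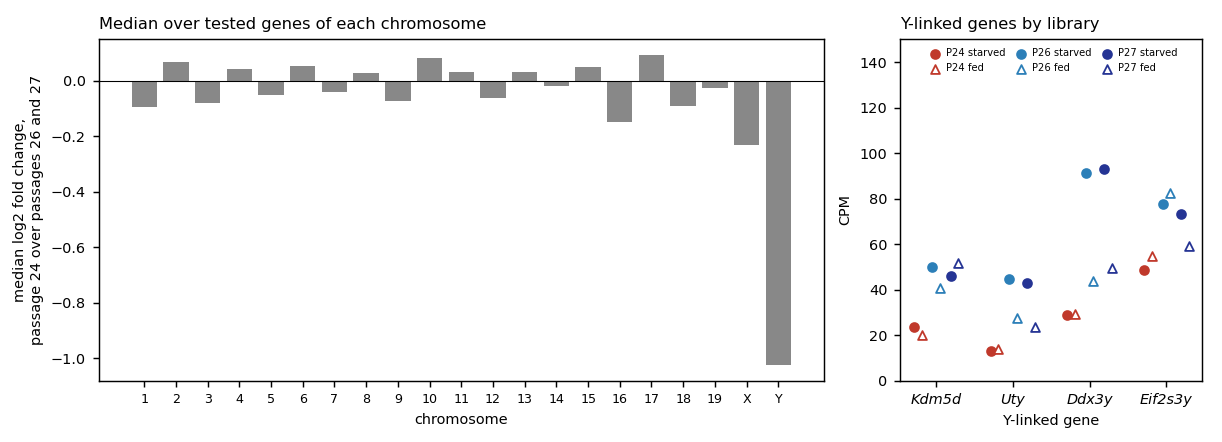
Left, median log2 fold change (passage 24 over passages 26 and 27) of the tested genes of each chromosome; right, CPM of 4 Y-linked genes in each library, with starved (filled circles) and fed (open triangles) cells. The Y-linked median of -1.025 is the lowest, and all 4 genes are lower at passage 24 than in every library of passages 26 and 27.

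Both passage 24 libraries lay below all others for the 4 Y-linked genes drawn, and transcripts of all 4 were present in every library. The 5 tested Y-linked genes had a median GC content of 37.9%, against 46.9% for the X-linked genes. Relative to genes of like length and GC content the Y-linked median was -0.591 and the X-linked median -0.147. Xist, the RNA that coats an inactive X chromosome, stayed at or under 0.107 CPM.

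The retinal markers that gave the line its use were few. Of 15 cone photoreceptor genes on the list 7 had enough counts to be tested, and 0 were called (edgeR; 2 had an unadjusted p under 0.05, and DESeq2 called 0). Arr3, cone arrestin, had 0 counts in all 6 libraries, and Opn1mw, the middle-wavelength cone opsin, stayed at or under 0.0278 CPM. Opn1sw, the short-wavelength opsin, had 0.321 and 0.167 CPM at passage 24, against 0.585 and 0.295 CPM at passage 26 and 0.528 and 0.484 CPM at passage 27 (-0.89 ± 0.40, adjusted p = 0.167). Rom1, an outer segment membrane protein, had 8.25 and 8.37 CPM at passage 24, against 5.24 and 6.23 CPM at passage 26 and 6.87 and 6.33 CPM at passage 27 (0.52 ± 0.22, adjusted p = 0.143). Of 5 tested rod genes 0 were called in edgeR (0 before adjustment at 0.05, 0 by DESeq2), and Nrl, Nr2e3, Cnga1 and Rcvrn had 0 counts. Summed over the cone list, the level was 11.6 and 10.4 CPM at passage 24, against 10.0 and 9.56 CPM at passage 26 and 13.0 and 9.74 CPM at passage 27.

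Among 10 tested eye field and retinal transcription factors 2 were called lower and 0 higher, while the median of the list was 0.46. Both passage 24 libraries lay above all others for 4 members and below them for 1, beside 14.9% and 22.4% of all genes. Pax6, the master regulator of eye development, had 183 and 118 CPM at passage 24, against 391 and 179 CPM at passage 26 and 454 and 299 CPM at passage 27 (-1.02 ± 0.22, adjusted p = 0.0418). Of 11 tested ganglion cell and neuronal genes 1 was called higher and 2 lower. Stmn2, a tubulin-binding protein of growing axons, rose by 1.5 ± 0.28, and Map2, a dendritic microtubule protein, fell by 0.63 ± 0.13. Thy1, a surface protein used to mark ganglion cells, had 33.5 and 6.52 CPM at passage 24, against 52.5 and 8.46 CPM at passage 26 and 25.9 and 23.02 CPM at passage 27 (-0.62 ± 0.48, adjusted p = 0.391), and its groups overlapped.

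Primary cilia are built by intraflagellar transport (IFT), and the BBSome carries membrane proteins in and out of them. Of 45 tested genes of IFT, the BBSome and the transition zone 3 were called lower and 0 higher (6.7%, beside 8.20% of all genes), with a median of -0.28. For 22 of the 45 both passage 24 libraries lay below all others, beside 22.4% of all genes. Ift172, an IFT-B subunit, had 30.02 and 22.7 CPM at passage 24, against 51.1 and 42.95 CPM at passage 26 and 57.9 and 60.4 CPM at passage 27 (-0.93 ± 0.19, adjusted p = 0.0374). Bbs1, a BBSome subunit, fell by 1.36 ± 0.31 and Arl13b, a GTPase of the ciliary membrane, by 0.58 ± 0.13. Rpgrip1l of the transition zone (-0.61 ± 0.17, adjusted p = 0.0620), Ift88 (-0.26 ± 0.18, adjusted p = 0.336) and Cep164 of the basal body (-0.06 ± 0.13, adjusted p = 0.787) did not pass. Relative to genes of like length and GC content the list's median was -0.24.

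Markers of other cell types gave no single direction. S100a4, a fibroblast marker, had 402 and 501 CPM at passage 24, against 159.9 and 173 CPM at passage 26 and 197 and 70.3 CPM at passage 27 (1.72 ± 0.35, adjusted p = 0.0378). Of the 9 tested fibroblast genes it was the 1 called higher, while Col1a2 and Postn were called lower (list median -0.62). The fibroblast sum was 2712 and 1396 CPM at passage 24, against 6585 and 2148 CPM at passage 26 and 7887 and 2853 CPM at passage 27. Col1a2 alone had 1714 and 685 CPM of it at passage 24. Of 4 tested endothelial genes 2 were called higher (Vwf and Kdr), and of 4 tested leukocyte genes 2 were called higher, Cd14 by 1.29 ± 0.27 and Cd68 by 1.67 ± 0.37. Of 11 tested Müller glia genes 2 were called higher, Cd44 by 0.97 ± 0.15 and Vim by 0.97 ± 0.20, and 2 were called lower, Slc1a3 (-2.16 ± 0.39) and Clu (-2.65 ± 0.58). Summed over its list, the leukocyte level was 6.86 and 18.5 CPM at passage 24, against 3.71 and 6.11 CPM at passage 26 and 3.30 and 3.76 CPM at passage 27, with Tyrobp at 0 counts. Most of the passage 24 sum was Cd68 (3.66 and 13.5 CPM) and Cd14 (2.72 and 3.97 CPM). The endothelial sum was 16.4 and 32.2 CPM at passage 24, against 4.80 and 8.82 CPM at passage 26 and 3.61 and 3.21 CPM at passage 27. Kdr (12.4 and 24.8 CPM) and Vwf (2.78 and 6.02 CPM) held most of it at passage 24. Cdh5, another endothelial gene, had too few counts to be tested. These sums therefore mainly restate the called genes. The part of mixed cell types in the differences above was not tested.

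**Figure D5:**
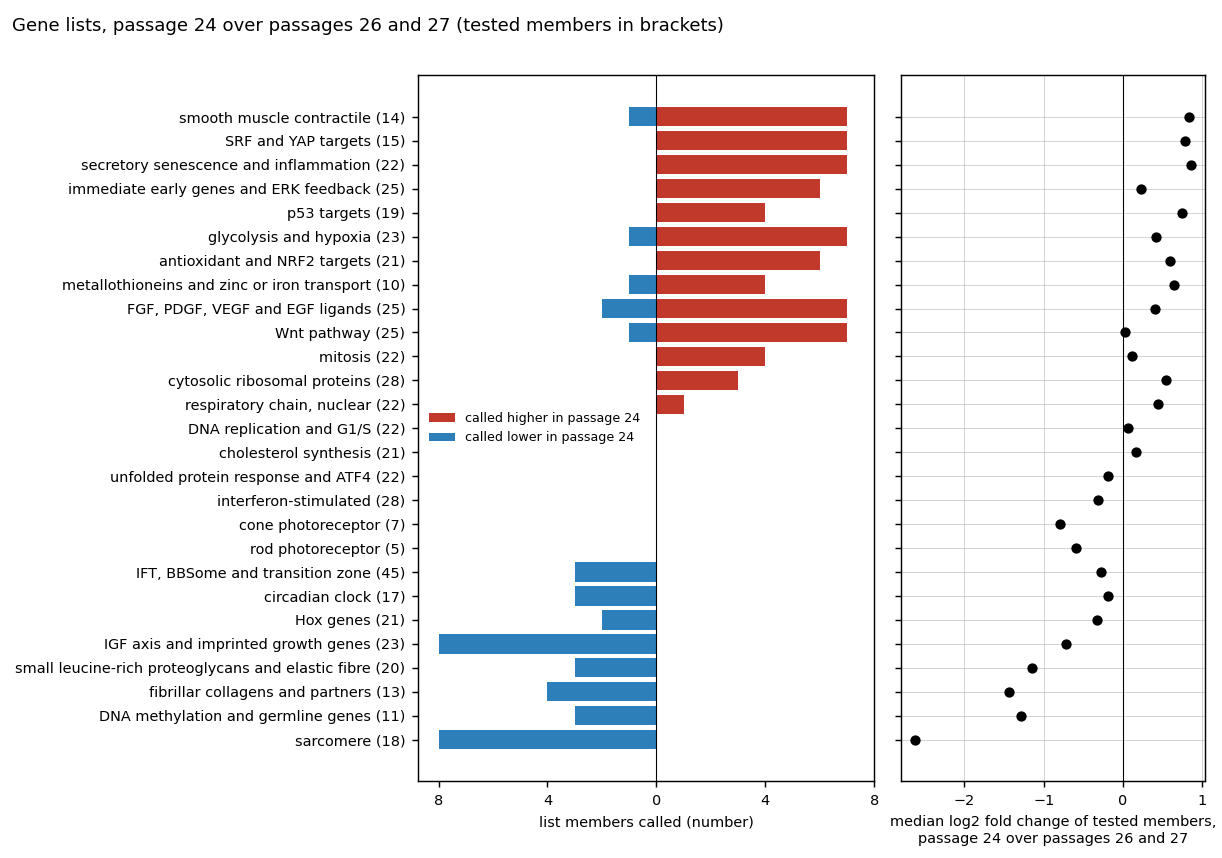
Members called higher (red, right) and lower (blue, left) at passage 24 in 27 gene lists, with the number of tested members in brackets, and the median log2 fold change of the tested members. Sarcomere, collagen and imprinted growth genes lie on the lower side (medians -2.63, -1.44 and -0.72) and smooth muscle, SRF and inflammatory genes on the higher side (0.84, 0.79 and 0.86).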

How the data were processed

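Polyadenylated RNA of 661W cells was read as 75 bp single ends. The authors aligned the reads to mouse GRCm38/mm10 with STAR and deposited HTSeq counts per gene (versions not given in the sources used here). A deposited table of the authors' own DESeq2 comparison was not used. Of 38803 rows, 27 named as dates were left out (0.223 to 0.301% of the counts), and 24541 of the remaining 38776 genes had a count.

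Passage 24 (2 libraries) was tested against passages 26 and 27 (4 libraries) in edgeR 4.0.16 (R 4.3.3) with TMM normalization, filterByExpr, the growth condition as covariate and the quasi-likelihood test, and genes were called at a Benjamini-Hochberg adjusted p under 0.05 over all 16168 genes. CPM are counts per 1000000 of the library total, and whether libraries lay above or below others was judged on these CPM. The TMM factors were 0.979 and 0.941 at passage 24 and 0.994 to 1.04 in the other libraries. CPM without them therefore place passage 24 slightly lower than the fitted values do. DESeq2 1.42.0, limma 3.58.1, other scalings, filters and sample subsets were run as alternatives. With the growth condition removed, the libraries of a passage had a Pearson r of 0.675, 0.273 and 0.605 across genes for passages 24, 26 and 27. The passage 24 difference is still part of these values. The starved library of passage 26 had an r of 0.251 with the fed library of passage 27. With passage 24 in the model, the correlation within a passage in limma-voom was 0.114. The libraries of a passage come from 1 experiment each. The block is nested in the comparison, so it entered as a random effect only. On simulated counts with known changes the test recovered 1, 25, 44 and 49 of 50 genes at log2 changes of 0.5, 1, 2 and 3, with 17 false calls of 15895 genes. The simulated libraries were independent, with no growth effect and no deviation shared within a passage. These counts therefore do not describe the error between experiments. The correction for gene length and GC content was added after seeing the data.

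Genes were named by rule: the 15 largest changes in each direction among called genes of mean CPM 1 or more whose passage 24 libraries lay apart, up to 4 called members per list, genes the study names as markers, and the 5 with most counts. The text describes a selection of those; exceptions are marked. The gene lists were chosen with earlier results of these data known. Positions are from GENCODE M21 and promoters from RefSeq (GRCm38.p6). Some genes are not reported here.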

Additional observations from a re-analysis of the deposited data

Results flagged for a closer look

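For 12 of the 143 named genes examined, the gap rule for 4 libraries picked 1 library of passages 26 and 27, where chance gives about 1 in 20 groups (the gap to the nearest library over the range was above Dixon's critical value for 4 libraries). The fed library of passage 26 stood apart from the other 3 libraries of passages 26 and 27 for Cdon (356 CPM, next 816 CPM), Ctgf (209 CPM, next 96.9 CPM), Il1rl1 (38.5 CPM, next 20.1 CPM), Kdr (6.74 CPM, next 2.25 CPM), Lce1g (1.07 CPM, next 0.0650 CPM), Mdm2 (115 CPM, next 62.6 CPM), Nppb (0.898 CPM, next 0.0786 CPM) and Robo3 (1.33 CPM, next 0.223 CPM). The fed library of passage 27 stood apart from the other 3 libraries of passages 26 and 27 for Hoxb9 (53.4 CPM, next 32.3 CPM). The starved library of passage 26 stood apart from the other 3 libraries of passages 26 and 27 for Mt1 (248 CPM, next 158 CPM). The other 2 of the 12 were Cyp1a1 (0.0268 CPM in the fed library of passage 26, next 0 CPM) and Opn1mw (0.0229 CPM in the starved library of passage 27, next 0 CPM), whose values lie under the level that a count of 0 allows in those libraries, so that no library could be told apart at this depth. In a gene higher at passage 24, a high library among the other 4 lies on the side of passage 24 by selection. Why the fed library of passage 26 stood apart was not tested.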

How the results depend on the processing

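The number of genes called (1326) was 2827 with no filter on low counts, 3640 in DESeq2, 630 in limma-voom with the passage as a random replicate block, 309 with counts summed per passage, 3450 with the passage as a factor of 3 levels, 471 without passage 27, 4360 without passage 26, 45 in fed libraries only, and 0 with no growth condition in the model (4035 at an unadjusted p under 0.05) or at an adjusted p under 0.01. Leaving out 1 library at a time gave 0 to 3595. Over the same alternatives in that order, the 183 list members called were 358, 389, 109, 72, 383, 112, 469, 12, 0 and 0, and 0 to 360 with 1 library left out. The X chromosome median of -0.232 was -0.32 with library totals, -0.19 without passage 26, -0.291 in starved and -0.146 in fed libraries only, -0.18 against passage 27 alone and -0.147 relative to genes of like length and GC content, and -0.301 to -0.163 with 1 library left out. The interaction gave 44 genes in DESeq2, against 0 in edgeR. Scaling by RLE size factors, a stricter filter and limma-voom kept the count of genes within 1.5 times of that reported.

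Of the 134 called genes that the text names, 0 changed sign in the 20 alternatives; 96 were called with the random block, 68 with summed passages and 0 without either passage 24 library. Myod1, which was not called, had a log2 fold change of 0.54 in fed libraries only, and -2.25 to 0.52 with 1 library left out (0.52 without the starved library of passage 24). With 3 residual degrees of freedom and 1 experiment per passage, precision is set by the number of libraries and not by depth, and passage, experiment and day of culture cannot be told apart.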

Other observations

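Genes outside the lists, chosen after their values were seen, gave some of the widest separations. Scn7a, a sodium channel gene of glia and muscle, had 1.68 and 0.0139 CPM at passage 24, against 134 and 1.26 CPM at passage 26 and 158 and 18.1 CPM at passage 27 (log2 fold change -6.67 ± 1.24, adjusted p = 0.0330, edgeR). Its starved library of passage 24 lay above the fed library of passage 26, so the groups overlapped. Its fed library of passage 24 lay under the level that a count of 0 allows, so the size of the fold is uncertain. Cyp1a1, a target of the aryl hydrocarbon receptor, had 0.488 and 3.49 CPM at passage 24, against 0 and 0.0268 CPM at passage 26 and 0 and 0 CPM at passage 27, where the passage 26 and 27 libraries lie at or under the level that a count of 0 allows, and no fold is given. Serpinb2, a plasminogen activator inhibitor, had 0.360 and 10.9 CPM at passage 24, against 0.0130 and 0.630 CPM at passage 26 and 0.0115 and 0.471 CPM at passage 27 (log2 fold change 4.49 ± 0.33, adjusted p = 0.0210), and its groups overlapped. The starved libraries of passages 26 and 27 lay under the level that a count of 0 allows for this gene too.

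Genes called in the same direction also lay side by side in places, which were chosen after their values were seen. In 1 Mb of chromosome 5 (GRCm38, from 105 Mb) 6 of 11 tested genes were called lower at passage 24, all of them guanylate-binding proteins, the interferon-induced GTPases of cell-autonomous immunity. Gbp6 had 8.25 and 3.83 CPM at passage 24, against 32.7 and 13.7 CPM at passage 26 and 39.03 and 27.7 CPM at passage 27 (log2 fold change -2.18 ± 0.32, adjusted p = 0.0241), and both passage 24 libraries lay below all 4 others. The fitted log2 fold changes of Gbp8, Gbp11, Gbp10, Gbp4 and Gbp9 were -3.04 ± 0.56, -2.79 ± 0.35, -2.11 ± 0.24, -1.78 ± 0.28 and -1.58 ± 0.23. These genes are close copies of each other, so the split of reads between them is uncertain. In 1 Mb of chromosome 3 (from 90 Mb) 4 of 27 tested genes were called higher, S100a3, S100a4, S100a6 and S100a7a, which encode small calcium-binding proteins. S100a6 had 3550 and 3825 CPM at passage 24, against 1360 and 2030 CPM at passage 26 and 1664 and 1604 CPM at passage 27 (log2 fold change 1.24 ± 0.18, adjusted p = 0.0246), with no overlap between the groups.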
